A study of Mus musculus with 14 samples.

Results

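Integrins and adhesion molecules of T cells were followed across thymocytes and splenic T cells of wild-type and ENK KO mice. The set holds 10 genes, chosen by name: the integrin subunits Itgal, Itgb2, Itga4, Itgb1, Itgb7, Itgae and Itga6, and the adhesion molecules Icam2, Selplg and Cd44. All 10 were found among 19937 genes on the arrays, each by a single probe set, and all 10 passed the filter on low values, which kept 13641 genes.

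Expression was measured on 14 arrays of sorted cells, to compare ENK KO with wild-type (WT) mice in CD4+CD8+ thymocytes and in CD8+ splenocytes. All mice are labelled C57BL/6. The thymus WT group held 3 arrays, all from animals aged 7 months, 1 of them labelled female. The thymus ENK KO group held 2 arrays, replicate 29 from a 7-month-old male and replicate 1 from a 2-month-old female. The spleen WT group held 4 arrays, all from animals aged 7 months, 1 of them labelled female. The spleen ENK KO group held 5 arrays: replicates 3 and 6 from 2-month-old females, and replicates 28, 31 and 25 from males aged 6, 7 and 9 months. Every 2-month-old animal was thus an ENK KO female, and young age and female sex cannot be told apart within ENK KO. The labels do not spell out ENK, nor the allele or whether it is germline, while Engrailed-2, a homeobox protein, is named in the title of the series. Nor do they say outright that the arrays stand for different animals, and the p-values are about the scatter among arrays.

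Integrins are receptors made of an alpha and a beta subunit, and a beta subunit shared by several alpha subunits gives several receptors with different ligands. On T cells, αLβ2 (LFA-1) binds ICAM proteins, α4β1 binds VCAM-1 and fibronectin, α4β7 binds the gut addressin MAdCAM-1, αEβ7 (CD103) binds E-cadherin on epithelium, and α6β1 binds laminin. ICAM-2 is a ligand of LFA-1, PSGL-1 (encoded by Selplg) is a ligand of the selectins, and CD44 binds hyaluronan and is used as a surface marker of antigen-experienced T cells.

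Marker genes matched the sorted populations on 13 of the 14 arrays. Thymus arrays had Cd4 between 12.94 and 13.13 and Cd8a between 12.89 and 13.23 on the log2 scale of the arrays, and 8 spleen arrays had Cd4 between 6.61 and 6.92 and Cd8a between 12.06 and 12.53. The library labelled spleen ENK KO replicate 28 went against its label, with Cd4 at 12.20 and Cd8a at 6.78, and with the regulatory T cell genes Foxp3 at 9.87 and Il2ra at 11.14. Results that rest on this library are given with and without it. Spleen WT replicate 22, labelled female, had Xist at 5.90, within the 5.52 to 6.38 of arrays labelled male, and the Y-linked Kdm5d at 9.85, and the counts of members called in each comparison were the same without both libraries. Array medians were 7.14 to 7.25. These are values of sorted cells in bulk, in which fewer cells of a type and less RNA per cell cannot be told apart.

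Splenic CD8+ T cells and CD4+CD8+ thymocytes differed in most of the 10 genes. In WT, spleen cells had more Itgb7, Itgae, Cd44, Selplg, Itga4 and Itgb2 and less Itgb1, Icam2 and Itgal than thymocytes, while Itga6 did not pass the test. Of the subunits of αEβ7, Itgb7 was 6.88-fold higher and Itgae at least 4.72-fold higher, the latter a lower bound because its thymus values lay under the filter on low values. By limma with an adjusted p under 0.05, 9 of the 10 genes were called, 6 higher and 3 lower in spleen, against 68.6% of all genes tested called in either direction (30.5% higher and 38.2% lower). In ENK KO mice, where the group means come from other arrays but the fit shares 1 estimate of spread with WT, 9 were called, the same 6 higher and the same 3 lower, against 64.4% of all genes (27.4% higher and 37.1% lower). Without spleen ENK KO replicate 28 the count was 9 in each genotype, against 70.1% of all genes in WT and 65% in ENK KO. A rule of at least 1.5-fold and an unadjusted p under 0.05 kept 6 in each, against 27.5% and 26% of all genes. With so large a background of calls by adjusted p, the count of 9 is not particular to these genes. The share kept by the 1.5-fold rule was above its background. The genes were chosen with earlier results of these data known, and that excess was not tested. Itgae is among the 9, the 6 higher and the 6 kept by the 1.5-fold rule. It passed the filter through spleen alone, so its call is no separate support. Organ, maturation stage and CD4 status differ together between the populations and cannot be told apart.

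**Figure D1:**
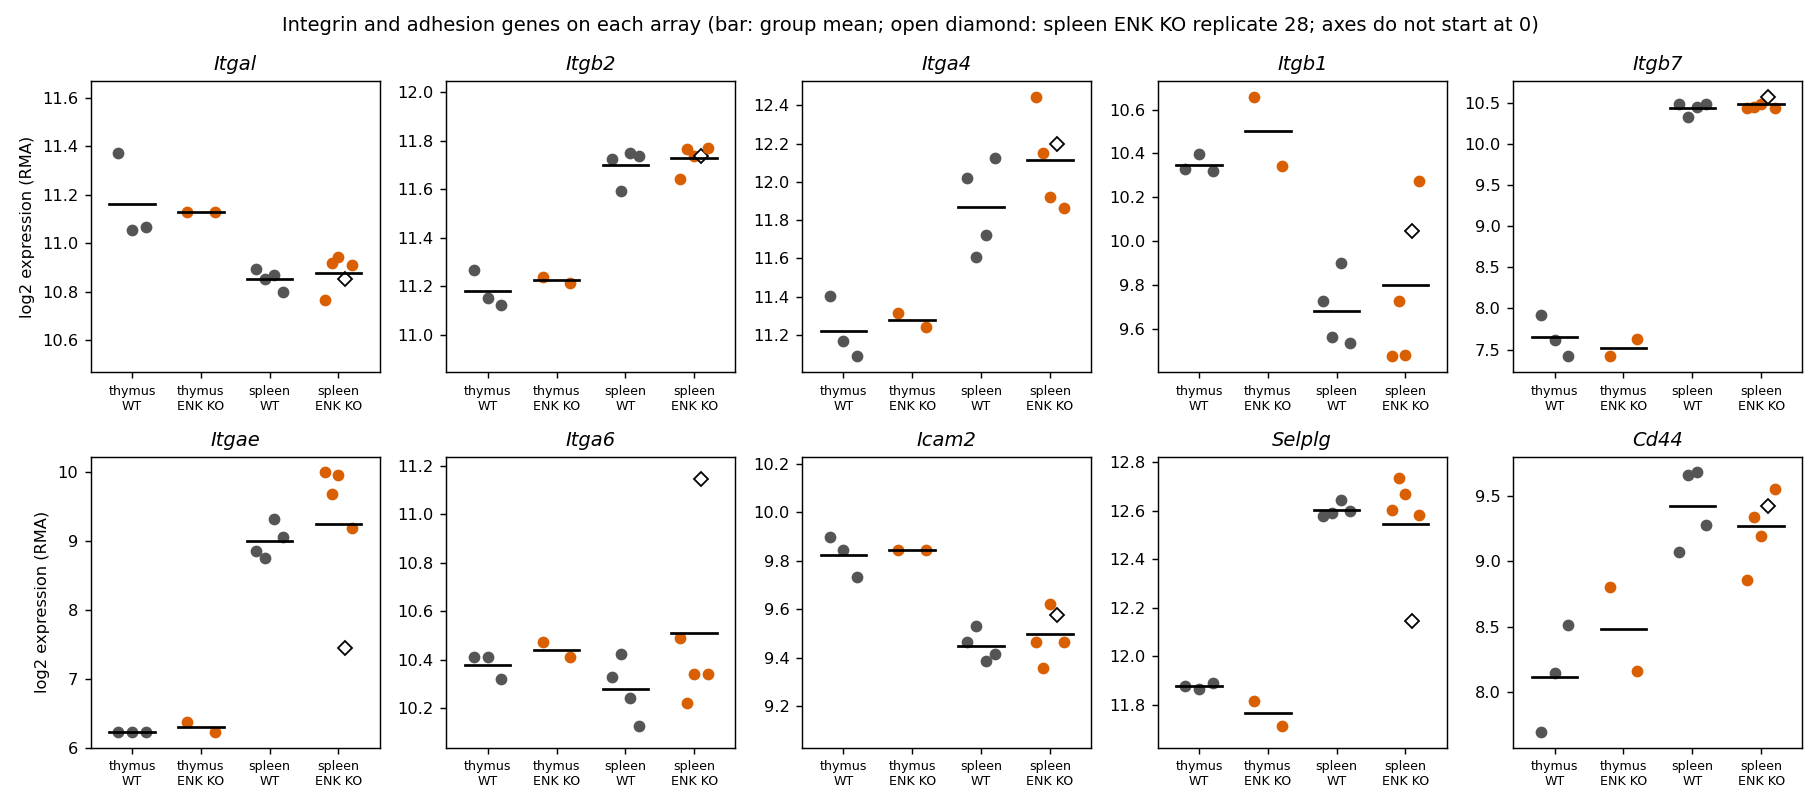
Log2 expression (RMA) of each of the 10 genes on every array, by group, with a bar at the group mean; the open diamond is spleen ENK KO replicate 28. Itgb7 lies between 7.42 and 7.92 on thymus arrays and between 10.32 and 10.57 on spleen arrays, and Itgae, Itga6 and Selplg on replicate 28 lie away from the other spleen arrays.

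**Figure D2:**
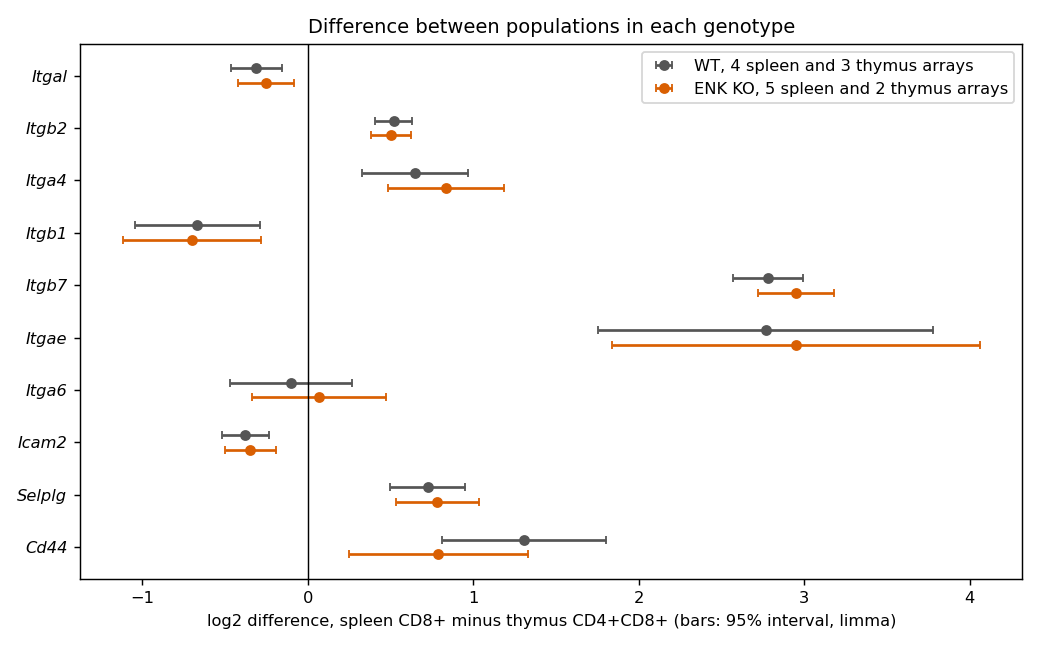
Difference in log2 expression between spleen CD8+ and thymus CD4+CD8+ cells for each gene, with WT arrays (grey) and ENK KO arrays (orange) fitted as separate contrasts and bars for the 95% intervals of limma. The intervals of 6 genes lie above 0 and those of 3 below 0 in both genotypes, and the intervals of Itga6 cross 0. For Itgae the measured differences are drawn, although its thymus values lie under the filter level. Only a lower bound is read from them, at least 4.72-fold in WT and at least 5.63-fold in ENK KO.

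Itga4, Itgb1 and Itgb7 form receptors that share the α4 subunit, and they moved in different directions between the populations. The bases just upstream of their transcription starts are shown because the 3 genes differ there in matches to CCNCACCC, a form of the CACCC box bound by Krüppel-like factors, which include Klf2, a regulator of T cell homing. The sequences are from RefSeq on GRCm38.p6, 250 bases upstream of the annotated start, read 5′ to 3′ on the gene's strand, with matches on either strand in capitals. They lie at chr2:79255176-79255425 on the plus strand for Itga4, chr15:102231936-102232185 on the minus strand for Itgb7 and chr8:128685404-128685653 on the plus strand for Itgb1.
Itga4: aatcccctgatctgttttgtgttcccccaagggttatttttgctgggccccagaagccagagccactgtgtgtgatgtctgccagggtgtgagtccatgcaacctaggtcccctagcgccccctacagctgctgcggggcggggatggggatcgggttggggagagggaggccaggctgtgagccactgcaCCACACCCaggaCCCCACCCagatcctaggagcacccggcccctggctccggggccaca
Itgb7: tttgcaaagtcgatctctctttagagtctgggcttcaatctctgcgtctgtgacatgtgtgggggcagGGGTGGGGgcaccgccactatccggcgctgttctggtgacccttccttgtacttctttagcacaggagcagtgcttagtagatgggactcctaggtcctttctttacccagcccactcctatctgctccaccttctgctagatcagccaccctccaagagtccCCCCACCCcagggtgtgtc
Itgb1: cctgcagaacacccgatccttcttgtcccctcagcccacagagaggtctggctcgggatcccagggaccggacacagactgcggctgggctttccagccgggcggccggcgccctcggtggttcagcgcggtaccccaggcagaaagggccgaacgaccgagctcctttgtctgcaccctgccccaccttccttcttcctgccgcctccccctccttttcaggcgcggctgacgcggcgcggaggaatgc
Itga4 and Itgb7, which were higher in spleen, each had 2 matches, and Itgb1, which was lower, had 0. In Itga4 the matches lie from -59 to -52 and from -47 to -40 relative to the start, and the first of them overlaps a match to the RUNX motif TGTGGT on the opposite strand, from -60 to -55. In Itgb7 they lie from -182 to -175, on the opposite strand, and from -19 to -12. The Itgb1 stretch held 21 CG dinucleotides, a number that 16.4% of promoters reach, against 6 in Itga4 and 5 in Itgb7. The stretch of Cd44, the only other member in the sequence table, held 0 matches to either motif, although Cd44 was also higher in spleen. Matches and direction thus did not go together in all members with a sequence. Of 32841 promoter stretches of this length, 14.9% held CCNCACCC and 14.05% held TGTGGT. A match is a description of letters, and binding was not measured.

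Itgb7 (probe set 10432957), the β7 subunit, was low on every thymus array and high on every spleen array. Thymus WT arrays read 7.92, 7.62 and 7.42, and thymus ENK KO arrays 7.42 and 7.63. Spleen WT arrays read 10.49, 10.32, 10.44 and 10.48, and spleen ENK KO arrays 10.44, 10.45, 10.48, 10.57 and 10.44. The spleen arrays lay in a narrow band, replicate 28 at its top, and no thymus array came near them. The WT difference was 2.78 (SE 0.10, limma adjusted p = 7.33e-11) and the ENK KO difference 2.95 (SE 0.11, adjusted p = 1.46e-10). Only 1.43% of the genes tested differed more between the WT populations. The groups of 9 members did not overlap between the populations in either genotype, as was so for 71.8% of all genes in WT and 70.5% in ENK KO.

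Itgae (probe set 10378286) encodes αE, which pairs with β7 alone. On the thymus arrays it stayed below the filter level of 6.76, at 6.22, 6.23 and 6.23 in WT and at 6.37 and 6.23 in ENK KO. In spleen the WT arrays read 8.85, 8.76, 9.32 and 9.06. The spleen ENK KO arrays read 9.996 (replicate 3), 9.68 (replicate 6), 9.96 (replicate 25), 7.44 (replicate 28) and 9.19 (replicate 31). Replicate 28, the library with Cd4, was the lowest spleen array, and the other 4 ENK KO arrays reached or exceeded most of the WT arrays. Itgae passed the filter through spleen alone, so only lower bounds are read for its differences from thymus. Set against the filter level in place of the thymus values, spleen was at least 4.72-fold higher in WT and at least 5.63-fold higher in ENK KO (at least 7.71-fold without replicate 28). The measured differences were 2.77 in WT (SE 0.47) and 2.95 in ENK KO (SE 0.51). Without replicate 28 they were 2.77 in WT (SE 0.18) and 3.40 in ENK KO (SE 0.20). No p-value is read for these differences, because only the spleen arrays brought the gene into the test.

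Itga4 (probe set 10473125), the α4 subunit, was already high in thymocytes and higher in spleen. Thymus arrays read 11.40, 11.17 and 11.09 in WT and 11.31 and 11.24 in ENK KO. Spleen WT arrays read 12.02, 11.61, 11.72 and 12.13, and ENK KO arrays 12.45, 12.15, 11.92, 12.20 and 11.86. No thymus array reached the lowest spleen array, and the spleen arrays were more spread than those of Itgb7. The difference was 0.65 in WT (SE 0.15, adjusted p = 0.0016, limma) and 0.84 in ENK KO (SE 0.16, adjusted p = 0.00054).

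Itgb1 (probe set 10576661), the β1 subunit and alternative partner of α4, ran the other way. Thymus arrays read 10.33, 10.40 and 10.32 in WT and 10.66 and 10.34 in ENK KO. Spleen WT arrays read 9.73, 9.56, 9.90 and 9.54, and ENK KO arrays 9.47, 9.73, 9.48, 10.04 and 10.27, the highest being replicate 31. Every spleen array lay below every thymus array, though replicate 31 by little. The differences were -0.67 in WT (SE 0.18, adjusted p = 0.00431, limma) and -0.70 in ENK KO (SE 0.19, adjusted p = 0.00611). The ENK KO call was lost without thymus ENK KO replicate 1 (-0.54, adjusted p = 0.0902).

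Within single arrays the change of one subunit can be set against that of its partner, and 5 known pairs fall within the set. The level of one probe set against another has no meaning, so only the shift of the log2 difference between populations was read. The pairs were chosen after values of these genes were seen, and the shifts are a description with no test. Itga4 minus Itgb1 was 1.43 higher over the 9 spleen arrays than over the 5 thymus arrays, and no spleen array overlapped a thymus array, as follows from Itga4 lying higher and Itgb1 lower in spleen. Itga4 minus Itgb7 was -2.09 in spleen relative to thymus, again with no overlap. Relative to α4, β1 thus moved downward and β7 upward. In the WT arrays alone the shifts of these 2 pairs were 1.32 and -2.13, and in the ENK KO arrays alone they were 1.54 and -2.11. No shift is read for Itgae with Itgb7, since Itgae lay under the filter level on every thymus array. Within spleen, ENK KO replicate 28 stood at -3.13 for Itgae minus Itgb7, below the other 8 arrays.

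**Figure D3:**
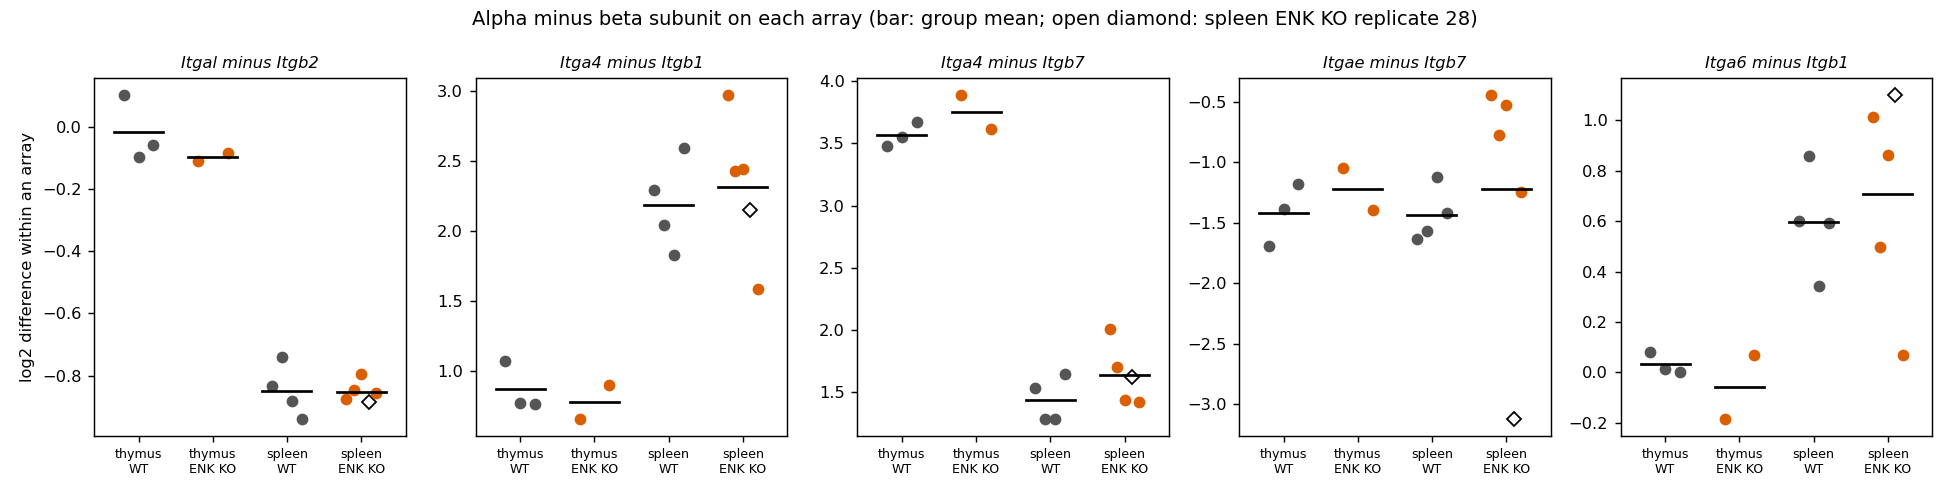
Log2 value of the alpha subunit minus that of its beta partner on each array, for the 5 pairs, by group, with bars at group means; each panel has its own scale, and the position of 0 carries no meaning because the probes differ. Spleen and thymus arrays do not overlap for Itgal with Itgb2, Itga4 with Itgb1 and Itga4 with Itgb7, and no shift can be read for Itgae with Itgb7, where thymus values of Itgae lie under the filter level; the diamond of replicate 28 is the lowest point there.

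Itgal and Itgb2, the 2 chains of LFA-1, differed in opposite directions. Itgb2 (probe set 10364262) read 11.27, 11.15 and 11.12 on thymus WT arrays and 11.24 and 11.21 on thymus ENK KO arrays. In spleen it read 11.73, 11.59, 11.75 and 11.74 in WT and 11.64, 11.77, 11.74, 11.74 and 11.77 in ENK KO. All spleen arrays lay above all thymus arrays, by 0.52 in WT (SE 0.05, adjusted p = 1.15e-06, limma) and 0.50 in ENK KO (SE 0.06, adjusted p = 4.57e-06). Itgal (probe set 10557591) read 11.37, 11.05 and 11.06 in thymus WT and 11.13 on both thymus ENK KO arrays, against 10.89, 10.85, 10.87 and 10.80 in spleen WT. The spleen ENK KO arrays read 10.77, 10.92, 10.94, 10.85 and 10.91, so that spleen lay below thymus without overlap. The Itgal differences were -0.31 in WT (SE 0.07, adjusted p = 0.00173, limma) and -0.25 in ENK KO (SE 0.08, adjusted p = 0.0131). In ENK KO the Itgal call was lost without thymus replicate 29 (adjusted p = 0.067) or replicate 1 (adjusted p = 0.0676). The shift of Itgal minus Itgb2 was -0.80, as a description with no test. Equal deposited values, such as the pair of 11.13, are common in this table, where 83.9% of genes have fewer distinct values than arrays, so an SD of 0 is no measure of precision.

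Icam2 (probe set 10392177), a ligand of LFA-1, was lower in spleen, as Itgal was. It read 9.90, 9.85 and 9.73 in thymus WT and 9.85 and 9.84 in thymus ENK KO, against 9.47, 9.53, 9.39 and 9.42 in spleen WT and 9.47, 9.36, 9.62, 9.58 and 9.47 in spleen ENK KO. No spleen array reached the lowest thymus array. The differences of -0.38 in WT (SE 0.07, adjusted p = 0.000203) and -0.35 in ENK KO (SE 0.07, adjusted p = 0.000908) correspond to 1.30-fold and 1.27-fold lower values.

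Itga6 (probe set 10472820), the α6 chain of laminin receptors, was the only member not called in either genotype. Thymus arrays read 10.41, 10.41 and 10.32 in WT and 10.47 and 10.41 in ENK KO, and spleen WT arrays 10.33, 10.42, 10.24 and 10.13. The spleen ENK KO arrays read 10.49, 10.22, 10.34, 11.15 and 10.34, where 11.15 is replicate 28. Apart from that library, spleen and thymus arrays overlapped. The WT difference was -0.10 (95% interval -0.47 to 0.27, limma, and -0.26 to 0.06 when replicate 28 is left out of the shared spread), and the ENK KO difference of 0.07 turned to -0.09 without replicate 28 (95% interval -0.27 to 0.09). Itga6 minus Itgb1 shifted by 0.66 (0.61 without replicate 28), and by 0.57 in WT, with some overlap between spleen and thymus arrays. A missed threshold does not show equal levels.

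Selplg (probe set 10532744), which encodes PSGL-1, read 11.88, 11.87 and 11.89 in thymus WT and 11.82 and 11.71 in thymus ENK KO. Spleen WT arrays read 12.58, 12.59, 12.64 and 12.60, and spleen ENK KO arrays 12.60, 12.73, 12.67, 12.15 and 12.58. Replicate 28, at 12.15, lay below all other spleen arrays and above all thymus arrays. The differences were 0.72 in WT (SE 0.11, adjusted p = 4.41e-05, limma) and 0.78 in ENK KO (SE 0.12, adjusted p = 5.76e-05). Without replicate 28 the standard errors fell to 0.04 and 0.05, and the ENK KO difference was 0.88 (adjusted p = 1.22e-08).

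Cd44 (probe set 10485405), the hyaluronan receptor, had the widest spread of the 10 genes among thymus WT arrays. Thymus WT arrays read 7.69, 8.15 and 8.51 and thymus ENK KO arrays 8.81 and 8.16. Spleen WT arrays read 9.07, 9.67, 9.68 and 9.28, and spleen ENK KO arrays 8.86, 9.34, 9.19, 9.43 and 9.55. The populations did not overlap within either genotype, although thymus ENK KO replicate 1, at 8.81, came close to spleen ENK KO replicate 3, both from 2-month-old females. The WT difference was 1.31 (SE 0.23, adjusted p = 0.00021, limma), or 2.47-fold, and the ENK KO difference 0.79 (SE 0.25, adjusted p = 0.0139). Without thymus ENK KO replicate 29 the ENK KO difference was 0.47 and was no longer called (adjusted p = 0.222).

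Between genotypes, limma called none of the 10 genes in thymus. The background was 0.0147% of the genes tested, 2 of 13641, so the test called almost nothing in any gene. None of the 10 had an unadjusted limma p under 0.05 on all 14 arrays, against 3.53% of all genes. Without spleen replicate 28, 1 member, Selplg, had, as did 555 of 13641 genes, while 0.0367% of all genes and no member were called. Selplg was then at -0.11 (SE 0.05, unadjusted p = 0.0439, limma adjusted p = 1), and both ENK KO arrays lay below all 3 WT arrays. It was the only member whose thymus groups did not overlap, against 9.25% of all genes. Differences ran from -0.13 for Itgb7 (95% interval -0.38 to 0.12) to 0.37 for Cd44 (-0.22 to 0.96). With 1 array left out at a time the Cd44 value ran from 0.044 to 0.69. The upper end for Cd44 stands for a 1.94-fold higher level, and that for Itgb2 (95% interval -0.09 to 0.18) for a 1.13-fold higher level.

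In spleen, too, limma called none of the 10, against 0.00733% of all genes (1 of 13641), with or without replicate 28, where the background was 0.0147%. No member had groups that did not overlap, which 1.71% of all genes did. On all arrays, none had an unadjusted limma p under 0.05, against 8.37% of all genes. Itga4 was 0.25 higher in ENK KO (SE 0.13, adjusted p = 0.625) and 0.23 without replicate 28 (SE 0.14, adjusted p = 0.588). This difference was not stable, and ran from 0.023 to 0.33 over 26 alternatives. The 2-month-old ENK KO females, replicates 3 and 6, read 12.45 and 12.15. The older ENK KO males, replicates 25 and 31, read 11.92 and 11.86, within the 11.61 to 12.13 of the WT arrays. The part of age or sex was not tested. Cd44 was at -0.15 (95% interval -0.58 to 0.28), and Itgb1 at 0.12 (-0.22 to 0.45). Itgb7 (95% interval -0.14 to 0.23) and Itgb2 (-0.07 to 0.13) had narrow intervals, whose upper ends stand for a 1.17-fold and a 1.09-fold higher level. The ENK KO arrays here include replicate 28 and the 2-month-old animals, and a narrow interval does not show equal levels.

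Itgae was the member most altered by the library with Cd4. On all arrays its ENK KO minus WT difference in spleen was 0.26 (SE 0.41, adjusted p = 0.866), and without replicate 28 it was 0.71 (95% interval 0.35 to 1.06, unadjusted p = 0.00102), or 1.63-fold. That value did not pass the adjustment over all genes (limma adjusted p = 0.433), and ENK KO replicate 31, at 9.19, lay below WT replicate 37, at 9.32. Without replicate 28, unadjusted limma p-values under 0.05 were reached by 1 member, Itgae, and by 1326 of 13641 genes. Among the ENK KO arrays, replicates 3 (9.996) and 6 (9.68) came from 2-month-old females. Replicates 25 (9.96) and 31 (9.19) came from males aged 9 and 7 months. Young age and female sex go together in ENK KO and cannot be told apart. Without replicate 28 and the 2-month-old animals, which leaves 2 ENK KO arrays, the difference was 0.58 (adjusted p = 0.729). Without replicates 28 and 22 it was 0.66 (adjusted p = 0.509). With labelled sex and young age as covariates and without replicate 28 it was 0.57 (adjusted p = 0.667). That fit took WT replicate 22 as female, as labelled. Its partner Itgb7 differed by 0.02 (95% interval -0.18 to 0.21) on the same arrays.

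**Figure D4:**
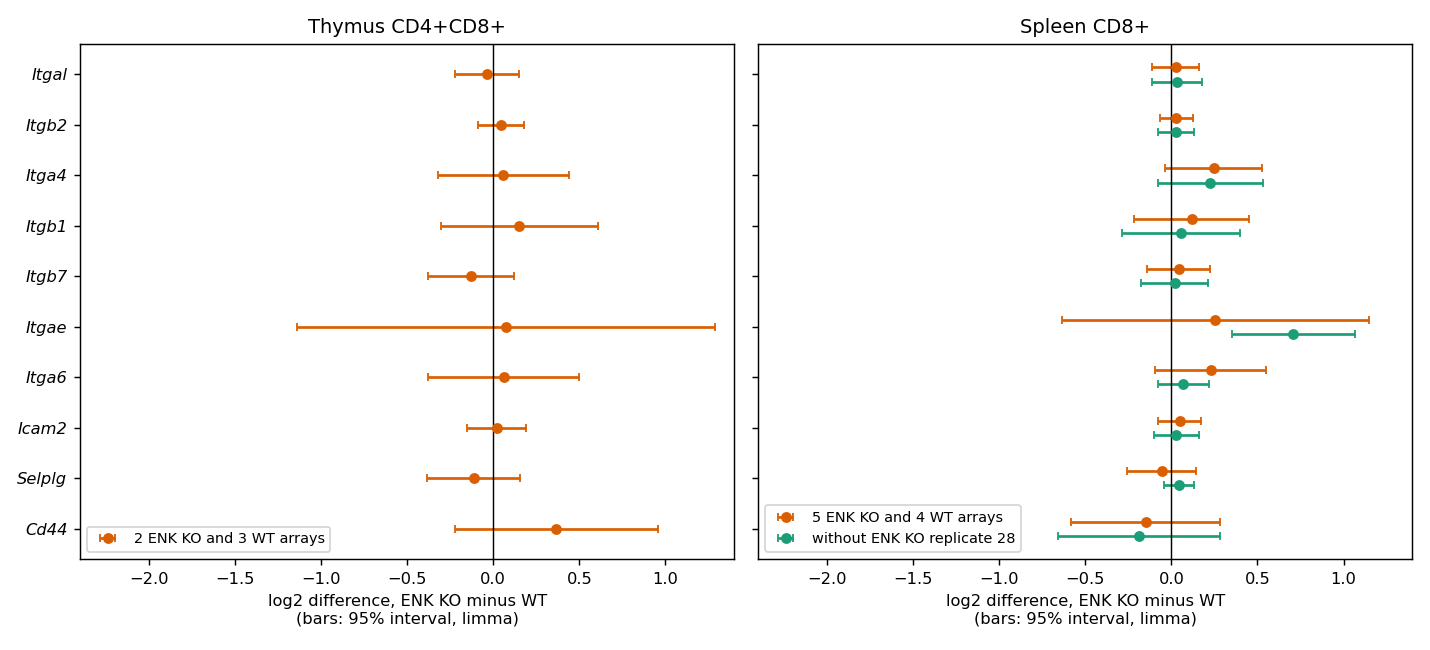
Difference in log2 expression between ENK KO and WT for each gene in thymus (left) and spleen (right), with 95% intervals of limma; spleen values are shown on all arrays (orange) and without ENK KO replicate 28 (green). Every interval on all arrays crosses 0, and that of Itgae in spleen runs from 0.35 to 1.06 without replicate 28.

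The test of whether the genotype difference itself differed between spleen and thymus called 0 of the 10 genes by limma, against 0.00733% of all genes. With all arrays no member had an unadjusted limma p under 0.05, against 2.99% of all genes. Without replicate 28 Selplg stood at 0.16 (limma unadjusted p = 0.0297, adjusted p = 0.978). Itgae then stood at 0.63, and no p-value is read for it. Its thymus values lie under the filter level, where a genotype difference could not be seen. The value is thus no result apart from the Itgae difference in spleen. Unadjusted p-values under 0.05 were then reached by 492 of 13641 genes. Cd44, higher in ENK KO thymus and lower in ENK KO spleen by its means, had an interaction of -0.52 (95% interval -1.25 to 0.22). With 1 array left out at a time it ran from -0.84 to -0.19. Its thymus part rests on ENK KO replicate 1, a 2-month-old female, at 8.81. Replicate 29, at 8.16, lay within the 7.69 to 8.51 of the thymus WT arrays.

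Levels of memory and effector genes in the spleen samples were set beside the 10 genes, since CD44 marks antigen-experienced cells. The list mean over 11 genes such as Cxcr3, Eomes and Gzmk lay between 9.89 and 10.45 on spleen WT arrays, between 9.41 and 10.36 on ENK KO arrays without replicate 28, and at 8.48 on that library. Thymus arrays lay between 6.28 and 6.38. Across the 8 spleen arrays without replicate 28, Cd44 rose with the list mean (Pearson r = 0.86, permutation p = 0.00878, adjusted over 10 members p = 0.0878; Spearman rho = 0.86, permutation p = 0.0107, adjusted p = 0.107). Leaving out the 2 arrays farthest from the median of the list mean gave r = 0.59. The permutations ran over all 8 arrays without regard to genotype, age or sex. The array lowest in both was ENK KO replicate 3, from a 2-month-old female (list mean 9.41, Cd44 8.86). Itgb1 had r = 0.73 (permutation p = 0.0242, adjusted p = 0.121) and rho = 0.71 (permutation p = 0.0576, adjusted p = 0.192), with r = 0.88 without the 2 farthest arrays. Itga4 had r = -0.73 (permutation p = 0.0432, adjusted p = 0.144) and rho = -0.45 (permutation p = 0.267, adjusted p = 0.446), but r was -0.20 without the 2 farthest arrays and so rested on them. Itgb2 had rho = 0.79 (permutation p = 0.0279, adjusted p = 0.14) and r = 0.54 (permutation p = 0.225, adjusted p = 0.376), with r = 0.31 without the 2 farthest arrays. For Itgae no pooled value is given, because it ran upward with the list mean among WT arrays and downward among ENK KO arrays, 4 of each. No relation passed the adjustment over the 10 members, and each genotype alone has 4 arrays, too few for a correlation of its own.

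**Figure D5:**
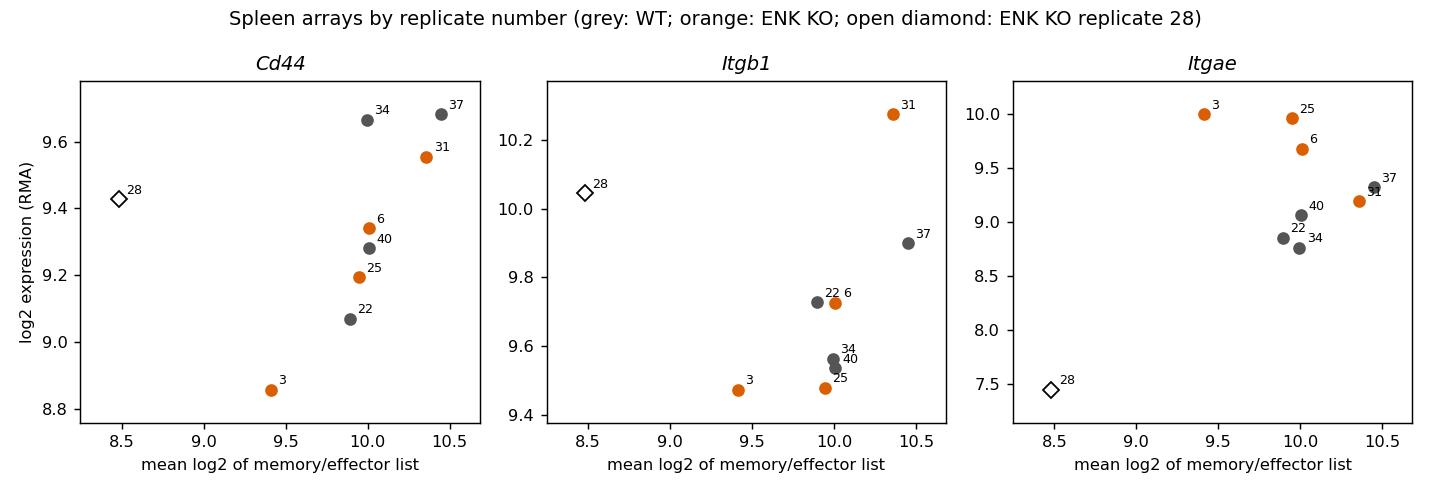
Log2 expression of Cd44, Itgb1 and Itgae on each spleen array against the mean log2 of the memory and effector list, numbered by replicate (grey, WT; orange, ENK KO; open diamond, ENK KO replicate 28). Cd44 is lowest on replicate 3 and highest on replicate 37, the ends of the list mean among the 8 arrays without replicate 28, and Itgae on 3 ENK KO arrays lies above all WT arrays.

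Means of marker lists of other cell types differed between some of the groups. The platelet list, which holds the integrin subunits Itga2b and Itgb3, had 7 of its 10 genes on the arrays. Its mean lay between 7.11 and 7.27 on spleen WT arrays, between 6.84 and 6.97 on ENK KO arrays without replicate 28 (7.28 on that library) and between 6.47 and 6.55 in thymus. Its genes did not all move together. Of 5 tested between the WT populations, 3 were higher and 1 lower in spleen, against 30.5% and 38.2% of all genes. On replicate 28, Itgb3 read 10.09, against at most 7.93 on the other spleen ENK KO arrays and 8.18 on spleen WT arrays. The B cell list (7 of 8 genes) lay between 7.48 and 7.93 on spleen WT arrays, between 6.88 and 7.94 on spleen ENK KO arrays and between 6.62 and 6.74 in thymus. The myeloid list (11 of 11 genes, Itgam and Itgax among them) lay between 6.71 and 7.37 in spleen and between 6.62 and 6.72 in thymus. The erythroid list (3 of 6 genes) lay between 7.09 and 7.46 on spleen WT arrays, between 6.71 and 7.17 on spleen ENK KO arrays and between 6.26 and 6.37 in thymus. The part of these cells in the integrin differences was not tested.

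Among 14 other integrin subunits tested in the WT comparison of populations, 5 were higher and 4 lower in spleen, a share near the 68.6% of all genes called (30.5% higher and 38.2% lower), with a median of 0.06 against -0.04 for all genes. Itga2, a collagen receptor chain, was 1.20 higher (SE 0.11) and Itgax, the CD11c chain, 0.72 higher (SE 0.08), while Itgam, the CD11b chain, was at -0.94 (SE 0.13) and Itgad at -0.72 (SE 0.04). Of 25 genes of integrin activation and linkage to actin, 9 were higher and 11 lower (median -0.08), where 68.6% of all genes were called. Flna, the actin crosslinker filamin A that binds β tails, was 0.85 higher (SE 0.05), and Sipa1, which inactivates Rap1, 0.72 higher (SE 0.05). Lims1, a part of the complex around integrin-linked kinase, was at -1.26 (SE 0.08) and Rasgrp1, an exchange factor for Ras, at -0.96 (SE 0.08).

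Of 9 genes tested from a list on glycosylation of selectin ligands and CD44, 8 were higher in spleen and 1 lower, with a median of 0.99. Here and for the next lists the background is again 68.6% of all genes called, 30.5% higher and 38.2% lower, with a median of -0.04, and no difference between lists was tested. Tpst2, which sulfates tyrosines and so acts on PSGL-1, was 1.97 higher (SE 0.14), B4galt1 1.42 higher (SE 0.12) and the sialyltransferase St3gal1 1.33 higher (SE 0.12), while Galnt1 was at -0.70 (SE 0.05). Of 8 counter-receptors tested, 5 were higher and 0 lower (median 0.24), among them Icam1, a ligand of LFA-1, by 1.29 (SE 0.20), Cdh1, the E-cadherin that αEβ7 binds, by 1.25 (SE 0.15), Vcam1 by 0.73 (SE 0.21) and Icam5 by 0.35 (SE 0.06). Of 20 other adhesion receptors, 10 were higher and 5 lower (median 0.75). Cd226, a receptor for nectin-family ligands, was 3.24 higher (SE 0.20), the tetraspanin Cd82 2.32 higher (SE 0.08) and Spn, which encodes CD43, 1.30 higher (SE 0.07), while Cd24a, a surface glycoprotein of immature lymphocytes, was at -4.67 (SE 0.22). These examples are the 4 smallest p-values of each list, and in ENK KO arrays the counts of higher and lower genes were 4 and 6, 10 and 8, 8 and 1, 4 and 1, and 10 and 4 for the lists in this order, where 27.4% of all genes were higher and 37.1% lower. Between genotypes limma called 0 genes of these 5 lists in either tissue, and unadjusted p-values under 0.05 were reached by 0, 2, 0, 0 and 0 genes in thymus and by 1, 5, 0, 2 and 2 in spleen, against 3.53% of all genes in thymus and 8.37% in spleen.

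The genes whose pattern over the 14 arrays was most like that of a member, by Pearson r, mostly share its step between thymus and spleen. For Itgb7 they were S1pr4, Crim1 and Fam102a (each r = 0.998), for Itgae Elovl7 (0.990), Ubqln4 (0.989) and Ncf1 (0.985), and for Selplg Ctsw (0.992), Plac8 (0.992) and Elovl7 (0.991). Itga6 was most like Foxp3 (r = 0.919, but Spearman rho = 0.398), Maf (0.896) and Lrrc32 (0.891), and both Itga6 and Foxp3 were highest on replicate 28. With group means removed and without replicate 28, over 13 arrays, Itgb7 was most like Adcy7 (r = 0.964), Kctd2 (0.960) and Cd2 (0.955), and Icam2 was most like Rapgef1 (0.913). These correlations describe the arrays and carry no test.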

How the data were processed

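Gene expression was measured in 14 samples of sorted T cells, 1 array each. The deposited values are log2 expression per probe set, and the authors computed them by RMA (submitters' processing notes). The sources used here do not give the software, its version or whether the arrays were normalized jointly. RMA draws arrays to a common distribution, so a shift of all genes would not be seen.

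The table held 28213 probe sets, of which 21640 had 1 symbol, 1321 several and 5252 none. Each symbol was represented by its probe set with the highest mean (19937 genes). A gene was tested if 2 or more arrays exceeded 6.76, the 40th percentile of the table (13641 genes). In R 4.3.3, limma 3.58.1 fitted a mean per group to all arrays (eBayes with a trend). Benjamini-Hochberg adjustment covered the 13641 genes, and an adjusted p under 0.05 was called. The groups share 1 estimate of spread because thymus ENK KO has 2 arrays. No scan date or batch label was used here. The number of arrays limits the precision. The steps were tested on simulated data.

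The members, the lists, the 5 subunit pairs and the rule for named genes were chosen with earlier results of these data known. By that rule all 10 members are named, the 4 smallest p-values of each list, and the 3 genes most like each member, of which some are given. Alternatives covered the filter, the normalization, the variance model, array weights, labelled sex and age, doubtful libraries, each array left out and an unadjusted p with a fold of at least 1.5. Fits that combine leaving out replicate 28 with age or sex, or with spleen arrays alone, were added after seeing the data. Promoter sequences were in the RefSeq table for 4 of the 10 members.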

Additional observations from a re-analysis of the deposited data

Results flagged for a closer look

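Single arrays stood apart from their group in 4 of 20 combinations of a gene and a spleen group, where chance gives about 1 in 20. Itgb2 on spleen WT replicate 34 was lowest at 11.59, the nearest array being at 11.73. Itgb2 on spleen ENK KO replicate 3 was lowest at 11.64, the nearest being at 11.74. Both gaps are small beside the difference of Itgb2 between the populations, 0.52 in WT. On the library labelled spleen ENK KO replicate 28, which carries Cd4, Itga6 was highest at 11.15 (nearest 10.49) and Selplg lowest at 12.15 (nearest 12.58). Thymus groups have too few arrays for this check.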

How the results depend on the processing

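The counts of members called stayed within 1.5 times under every alternative run: 0 in each genotype comparison and in the difference between tissues, and 6 to 9 in the WT and in the ENK KO comparison of populations, 23 alternatives each. The 6 arise under an unadjusted p with a fold of at least 1.5, where Itgal, Itgb2 and Icam2 fall out. Of 1017 values of single members under alternatives, 970 kept direction and call, 15 kept direction but lost the call, and 32 reversed, all 32 of values that were not called. Itga6 between the WT populations was 0.031 after quantile normalization. In ENK KO it was -0.014 with array weights, -0.091 without replicate 28, also with replicate 22 left out or sex and age as covariates, and -0.067 without replicate 28 and the 2-month-old animals. Between genotypes in thymus, Itgal was 0.032 with array weights, 0.043 with sex and age and 0.050 with these and without replicate 28; Itgae was -0.33 and -0.074 and Itga4 (without replicate 28) -0.010 with sex and age; Itgb1 was -0.0073 without the 2-month-old animals, with or without replicate 28. In spleen Itgae was -0.063 with sex and age and -0.13 without the 2-month-old animals, fits that hold replicate 28, and its difference between tissues was then -0.14. Selplg in spleen was 0.044 without replicate 28, in the full fit and in spleen arrays alone, 0.036 also without replicate 22, 0.022 also without the 2-month-old animals and 0.0075 with sex and age. The causes were not tested.

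Leaving out 1 array at a time gave thymus ranges of -0.028 to 0.056 for Icam2, -0.0064 to 0.15 for Itga4, -0.090 to 0.068 for Itgal, -0.0073 to 0.31 for Itgb1 and -0.25 to 0.0063 for Itgb7. Spleen ranges were -0.00083 to 0.20 for Itgb1, -0.0082 to 0.050 for Itgb2 and -0.10 to 0.044 for Selplg. Itga6 between ENK KO populations ran from -0.091 to 0.14 and Itgae between tissues from -0.0037 to 0.63. With 1 thymus ENK KO array left, its spread is taken from the other groups. In ENK KO the quantile-normalized fit lost Itgal (-0.16, adjusted p = 0.0952, limma), and leaving out the 2-month-old animals lost Itgal (-0.23, adjusted p = 0.127) and Itgb1 (-0.41, adjusted p = 0.203). No paired analysis was possible because no replicate number occurs in more than 1 group. Thymus values of Itgae near background, and 2 thymus ENK KO arrays, limit what can be seen.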
